A study of Homo sapiens with 42 samples.

Results

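The TBX3 domain is the stretch of chromosome 12 that runs from TBX5 and TBX3 to MED13L, here positions 114000000 to 116400000 of GRCh38. Its members are the 30 chromatin loops with either anchor starting in that window, of 33914 loops in the deposited table. The window was selected on counts at 72 h against 0 h, because it holds loop24597, the loop with the largest rise of all tested loops. Every value of 72 h against 0 h below therefore describes the choice and carries no test. A loop here is a pair of anchors of 10 kb, and its count is the number of Hi-C contacts between them. Counts came from K562, an established human leukemia cell line, wild type in every sample. The cells received 25 nM PMA, a phorbol ester used to drive them toward megakaryocytes, for 0 h (untreated), 6 h or 72 h. Each of the 3 time points had 14 of the 42 samples, in 4 biological replicates. Technical and sequencing repeats were summed into 12 libraries, which held 736929 to 1472197 contacts in the 33914 loops. Contacts outside these loops are not counted here.

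TBX3 and TBX5 encode T-box transcription factors that pattern the limb, the heart and, for TBX3, the mammary gland, and they lie side by side with long stretches of noncoding DNA around them. MED13L encodes a subunit of the Mediator kinase module, which regulates how Mediator joins RNA polymerase II. Many loops form when cohesin extrudes chromatin until it meets CTCF bound at an anchor, and others join active promoters and enhancers. The libraries hold contacts and no expression, so neither the identity of the cells nor the activity of these genes could be checked in them, and a higher count cannot tell more cells with a contact from more contacts per cell.

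At 72 h the contacts of the loops lying between TBX3 and MED13L were higher, while those at MED13L itself were not. Members fell by position into 3 stretches, a grouping made after the values were seen. These are 5 loops that start before TBX5 and span it, 14 loops that start within 50 kb of TBX3 or between it and MED13L, and 11 loops anchored in or beside MED13L. Normalized counts are contacts per 1000000 contacts in tested loops. The 14 loops between TBX3 and MED13L held 0.025% ± 0.0019 of the contacts in all loops at 0 h (SD, n = 4). They held 0.028% ± 0.0012 at 6 h (n = 4) and 0.052% ± 0.0032 at 72 h (n = 3, with 2 libraries averaged, as explained further on). The lowest and highest libraries had 0.0232% and 0.0275% at 0 h, 0.0266% and 0.0296% at 6 h, and 0.0495% and 0.0572% at 72 h, with 0 h and 6 h overlapping. Without loop24597 the other 13 loops held 0.0241% ± 0.002 at 0 h (0.0221% to 0.0269% over the libraries), 0.0266% ± 0.0016 at 6 h (0.0243% to 0.0279%) and 0.0465% ± 0.0042 at 72 h (0.0434% to 0.0532%). These shares rest partly on the comparison that chose the domain and are a description. The 11 loops at MED13L held 0.0332% ± 0.0014 at 0 h (n = 4), 0.0337% ± 0.0021 at 6 h (n = 4) and 0.0308% ± 0.0016 at 72 h (n = 3). The 5 loops on the TBX5 side held 0.0135% ± 0.0019, 0.0135% ± 0.0017 and 0.0178% ± 0.0014. Their libraries ran from 0.0117% to 0.0152% at 0 h, 0.011% to 0.0147% at 6 h and 0.0163% to 0.0193% at 72 h. Their share was thus also higher at 72 h, in every library. Whether the stretches differ from each other was not tested.

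**Figure D1:**
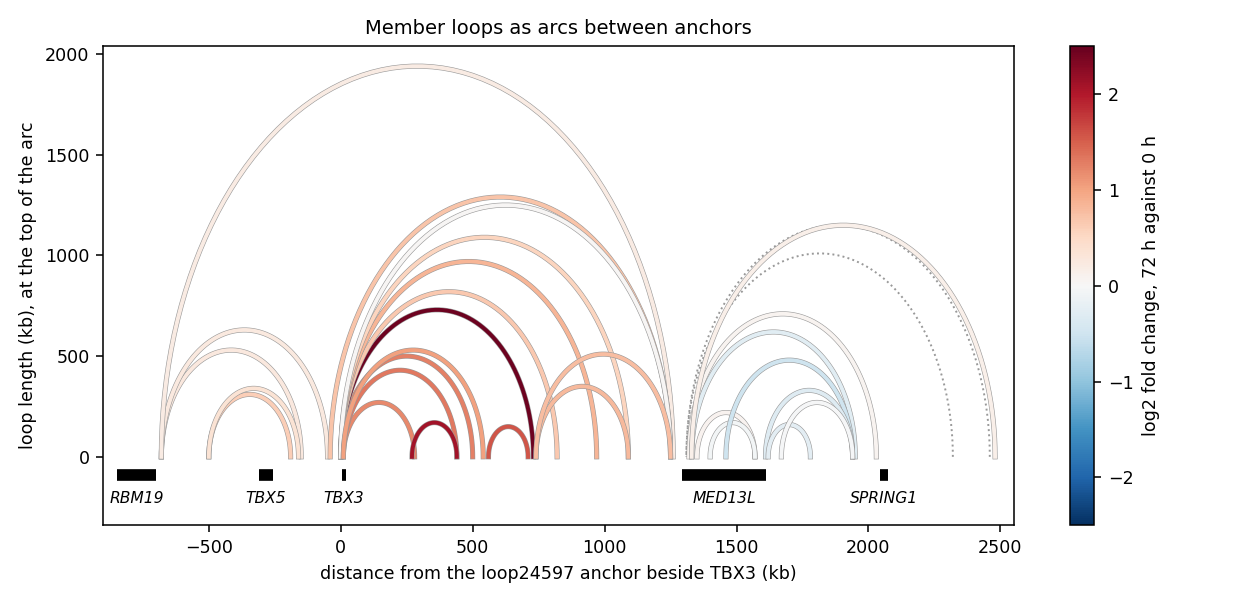
Each arc joins the anchors of 1 member loop, at its distance in kb from the loop24597 anchor beside TBX3, and the height of the arc gives the loop length in kb. Colour gives the log2 fold change of 72 h against 0 h, dotted arcs are the 2 loops with too few contacts to test, and black bars are genes. The red arcs lie between TBX3 and MED13L, where the median was 0.93, and arcs at MED13L are pale, with a median of -0.06.

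Of the 30 members, 28 passed the filter on low counts and 2 did not. The untested loops, loop24609 and loop24610, reach from the body of MED13L to beyond the window, and held 4 to 10 and 0 to 9 raw contacts per library. All loops of the table were fitted together with edgeR's quasi-likelihood test. Between 6 h and 0 h, 1 of the 28 tested members passed an adjusted p of 0.05, beside 6.41% of all 24132 tested loops (2.34% higher and 4.07% lower). At an unadjusted p under 0.05 there were 4 of the 28, beside 4908 of the 24132. All 6 h libraries lay above all 0 h libraries in 2 of the 28, beside 4.97% of all tested loops. Between 72 h and 6 h, 11 of the 27 tested members other than loop24597 were higher and 0 lower in edgeR's test. Of all tested loops, 10.7% were higher and 9.81% lower. At an unadjusted p under 0.05, 12 were higher and 1 lower, beside 8028 of the 24132 tested loops in either direction. With DESeq2, 8 were higher and 0 lower, beside 1046 higher and 943 lower of the 24132. All 72 h libraries lay above all 6 h libraries in 10 of the 27, beside 10.4% of all tested loops. With replicates 1 and 2 alone 6 of the 27 were higher, beside 1273 of 25175 tested loops. With replicates 3 and 4 alone 8 of 26 were, beside 846 of 23248. Of these 11 loops, 10 lay among the 13 other loops between TBX3 and MED13L, 1 on the TBX5 side and 0 at MED13L. This comparison shares its 72 h libraries with the one that chose the domain. Between 72 h and 0 h, 14 members had passed the same threshold, all higher, beside 33.6% of all tested loops, with 16.7% higher. The 72 h libraries lay above all 0 h libraries in 12 of the 28, beside 14.2% of all tested loops.

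Of the promoters in or near anchors of the domain, 3 are printed to show the sequence at these places, from RefSeq's table for GRCh38.p14, each 300 bases around a start, 5′ to 3′ on the gene's strand, with motif matches in capitals. TBX3 has no entry of its own. The first is in the anchor of loop24605, the second strongest riser of the domain, the second belongs to the antisense RNA that starts inside TBX3 and lies outside, within 10 kb of, the anchor at the 3′ end of TBX3, and the third is in the anchor of loop24617, a loop that did not pass the test.
LOC124903079, chr12:114933533-114933832, minus strand: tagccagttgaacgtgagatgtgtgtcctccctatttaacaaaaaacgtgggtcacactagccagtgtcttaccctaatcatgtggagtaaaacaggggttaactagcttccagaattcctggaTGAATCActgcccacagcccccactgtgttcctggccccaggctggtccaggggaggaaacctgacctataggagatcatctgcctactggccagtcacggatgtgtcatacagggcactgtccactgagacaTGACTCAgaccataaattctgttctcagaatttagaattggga
TBX3-AS1, chr12:114682042-114682341, plus strand: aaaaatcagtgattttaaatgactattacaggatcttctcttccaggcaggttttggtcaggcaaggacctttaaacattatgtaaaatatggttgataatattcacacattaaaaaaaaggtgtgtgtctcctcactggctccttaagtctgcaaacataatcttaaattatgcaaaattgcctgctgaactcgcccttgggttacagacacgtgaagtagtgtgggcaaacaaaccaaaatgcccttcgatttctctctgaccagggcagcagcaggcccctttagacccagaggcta
MED13L, chr12:116277644-116277943, minus strand: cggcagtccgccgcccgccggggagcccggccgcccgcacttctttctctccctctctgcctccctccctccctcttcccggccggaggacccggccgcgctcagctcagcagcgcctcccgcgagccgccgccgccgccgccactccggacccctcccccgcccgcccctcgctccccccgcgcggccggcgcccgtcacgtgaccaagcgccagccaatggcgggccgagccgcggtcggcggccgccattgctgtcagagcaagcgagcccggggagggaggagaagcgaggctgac
The motifs searched on both strands were TGANTCA, which AP-1 factors bind, AGGTGTGA, the T-box half-site, and the core of the CTCF motif. LOC124903079, a long noncoding RNA, had TGANTCA at positions 125 and 258 of its 300 bases. Of 35116 promoters of this length 7.71% held TGANTCA at least once and 0.515% held 2 or more matches, while 2.41% held the CTCF core and 0.98% the T-box half-site. The MED13L promoter was 78.3% G and C, against 49% for LOC124903079 and 41.3% for TBX3-AS1. Neither MED13L nor TBX3-AS1 had a match, which says only that these letters are not in these windows.

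loop24597 joins chr12:114660001-114670000, which ends 255 bases before the 3′ end of TBX3, to chr12:115390001-115400000, inside the long noncoding RNA gene LOC105370003, 730 kb away. Its raw counts were 16, 8, 5 and 12 in the 0 h libraries, 12, 19, 5 and 20 at 6 h, and 72, 64, 40 and 55 at 72 h. Every 72 h library held more contacts than any earlier library, and 0 h and 6 h overlapped. The sums of 41, 56 and 231 contacts have exact 95% Poisson intervals of 29.4 to 55.6, 42.3 to 72.7 and 202 to 263, which cover counting error only. Each of the 10 technical columns at 72 h held 17 to 29 contacts, against 1 to 8 at 0 h and 2 to 12 at 6 h. These are values of the comparison that chose the loop and describe it only.

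Scaled to depth, loop24597 had 9.77 ± 3.4 normalized contacts at 0 h (SD, n = 4), 15.2 ± 7.4 at 6 h (n = 4) and 57.8 ± 11 at 72 h (n = 3). Its log2 fold change at 72 h against 0 h was 2.45 (SE 0.22), or 5.45-fold, rank 1 of 24132 by construction. Replicates 1 and 2 alone gave 2.67, and replicates 3 and 4 alone gave 2.15. Against 6 h, the 72 h value was higher by 1.82 on the log2 scale (SE 0.20). Here replicates 1 and 2 alone gave 2.09, and replicates 3 and 4 alone gave 1.48. The authors' deposited table gives 2.44 for 72 h, against a reference that it does not state and that was taken to be 0 h. At 6 h the log2 fold change against 0 h was 0.62 (SE 0.30), which did not pass edgeR's test with an adjusted p of 0.22.

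**Figure D2:**
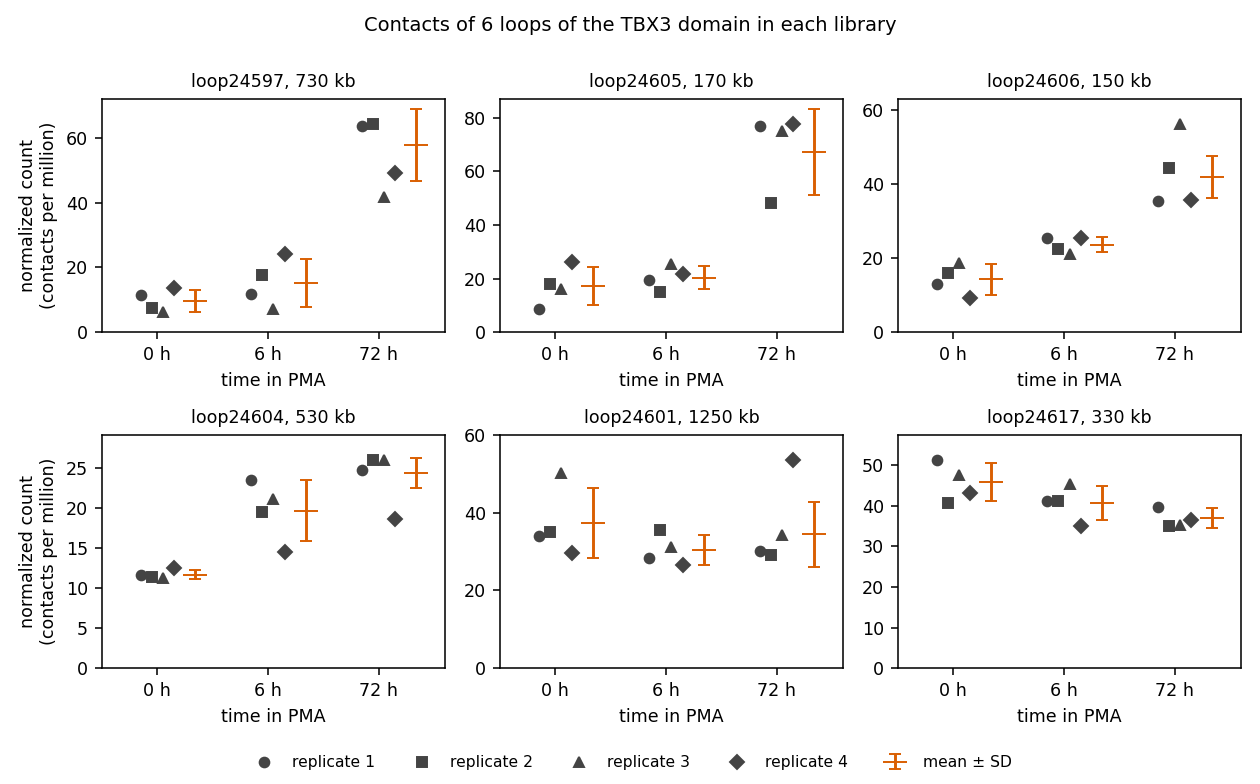
Normalized counts (contacts per 1000000 in tested loops) of 6 member loops at 0 h, 6 h and 72 h, with 1 symbol per biological replicate and orange bars for the mean ± SD (n = 4 at 0 h and 6 h, n = 3 at 72 h). The 72 h points of loop24597 (41.6 to 64.3) and loop24605 (48.2 to 77.7) lie above all earlier points, those of loop24601 (29.1 to 53.6) overlap them, and those of loop24617 (35.1 to 39.8) lie below all 0 h points.

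The anchor at chr12:114660001-114670000 beside TBX3 is shared by 6 loops, whose partners lie from 500 kb to 1250 kb away. They share 1 end and so are not independent measurements. At 0 h loop24597 had the lowest mean of the 6, and at 72 h the highest. loop24596, to a partner at 115160001 near the end of the noncoding RNA gene LOC124903081, had 16.7, 16.1, 16.3 and 10.2 normalized contacts at 0 h, 14.7, 19.6, 19.8 and 20.5 at 6 h, and 44.2, 32.1, 36.4 and 31.2 at 72 h. All its 72 h libraries lay above the earlier ones, and it rose from 6 h to 72 h by 0.96 on the log2 scale (SE 0.21, edgeR adjusted p = 0.0003), although within replicates 3 and 4 alone the value was 0.73 and did not pass.

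Further along the same side, loop24599 and loop24600 reach partners at 115630001 and 115750001, at or within 10 kb of ends of LOC105370002 and LOC105370003. Between 6 h and 72 h loop24599 rose from 16.9 ± 1.5 (SD, n = 4) to 32.8 ± 4.7 (n = 3), by 0.98 (SE 0.22, edgeR adjusted p = 0.00036). loop24600 rose from 28.6 ± 5.7 to 49.6 ± 2.1, by 0.80 (SE 0.17, edgeR adjusted p = 0.00031). In both, all 72 h libraries were above all 6 h libraries.

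The other 2 partners of this anchor did not pass the test between 6 h and 72 h. loop24598, whose partner at 115480001 lies 90 kb beyond that of loop24597, had 13.8 ± 3.2 at 0 h, 19.2 ± 5.7 at 6 h and 21.3 ± 5.3 at 72 h. From 6 h it changed by 0.25 on the log2 scale (SE 0.23, edgeR adjusted p = 0.48). Against 0 h its 72 h value was higher by 0.68 (SE 0.24) and past the threshold, given as a description. That value was 0.18 within replicates 1 and 2 and 1.24 within replicates 3 and 4. loop24601, with a partner at 115910001 and a length of 1250 kb, had 34, 35.1, 50.2 and 29.6 at 0 h, 28.4, 35.5, 31.1 and 26.5 at 6 h, and 30.1, 29.1, 34.3 and 53.6 at 72 h. Its 3 time points overlapped, with replicate 4 the high library at 72 h and replicate 3 at 0 h, and its log2 fold change from 6 h was 0.27 (SE 0.19, edgeR adjusted p = 0.3). The differences in change between partners of the shared anchor were not tested.

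The neighbouring anchor, chr12:114670001-114680000, holds the 3′ end of TBX3 and carries 3 loops. loop24603 reaches 430 kb to an end of the noncoding RNA gene LOC102723639 and had 10.1, 16.1, 18.8 and 12.5 normalized contacts at 0 h, 15.7, 15.9, 21.2 and 19.3 at 6 h, and 24.8, 34.1, 45.8 and 35.7 at 72 h. All 72 h libraries lay above all others, and it rose from 6 h by 0.97 (SE 0.22, edgeR adjusted p = 0.0004). loop24602 reaches 270 kb to an end of LOC124903080 and had 19.6, 24.3, 15.6 and 10.9 at 6 h and 23.0, 46.2, 39.5 and 35.7 at 72 h. One 72 h library fell within the 6 h range, and the loop rose by 0.97 (SE 0.22, edgeR adjusted p = 0.0004). Within replicates 1 and 2 alone neither of the pair passed the test, with 0.87 for loop24603 and 0.61 for loop24602.

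loop24604, the third loop at the 3′ end of TBX3, runs 530 kb to 115200001. It had 11.6, 11.4, 11.3 and 12.5 normalized contacts at 0 h, 23.5, 19.6, 21.2 and 14.5 at 6 h, and 24.8, 26.1, 26.0 and 18.7 at 72 h. Every 6 h library was above every 0 h library, and 6 h and 72 h overlapped. The 6 h change of 0.76 (SE 0.27) did not pass edgeR's test (adjusted p = 0.065), but passed without 6 h replicate 4 (0.86, edgeR adjusted p = 0.0463). From 6 h to 72 h the change was 0.26 (SE 0.23, edgeR adjusted p = 0.44). Whether its course differed from that of the other loops at this anchor was not tested.

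The second largest change at 72 h did not touch TBX3. loop24605 joins chr12:114930001-114940000, the anchor with the LOC124903079 promoter printed above, to the LOC102723639 end at chr12:115100001-115110000, 170 kb away. It had 8.69, 18.0, 16.3 and 26.2 normalized contacts at 0 h, 19.6, 15, 25.5 and 21.7 at 6 h, and 77.0, 48.2, 74.9 and 77.7 at 72 h. The 72 h libraries were all far above the rest, and 0 h and 6 h overlapped. Its log2 fold change was 2.09 (SE 0.19) at 72 h against 0 h, rank 9 of all tested loops. From 6 h it rose by 1.80 (SE 0.18, edgeR adjusted p = 1.1e-14), with 1.87 in replicates 1 and 2 alone and 1.70 in replicates 3 and 4 alone. At 6 h its change was 0.28 (SE 0.25, edgeR adjusted p = 0.58). The positions 114670001, 114930001 to 114950000 and 115100001 thus formed a triangle of which all 3 sides, loop24602, loop24603 and loop24605, rose between 6 h and 72 h.

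loop24606, 150 kb long, joins chr12:115220001-115230000 to chr12:115370001-115380000, which holds an end of LOC105370003 and lies near the far anchor of loop24597. It had 13.0, 16.1, 18.8 and 9.1 normalized contacts at 0 h, 25.5, 22.4, 21.2 and 25.3 at 6 h, and 35.4, 44.2, 56.2 and 35.7 at 72 h. The 3 time points did not overlap. It was the 1 member past the threshold at 6 h, with a change of 0.74 on the log2 scale (SE 0.25, edgeR adjusted p = 0.047), and it rose again from 6 h to 72 h by 0.83 (SE 0.19, edgeR adjusted p = 0.00062). The 6 h call was narrow. It was lost when any of 8 of the 12 libraries was left out (edgeR adjusted p from 0.038 to 0.16 over the 12), and within replicates 1 and 2 (0.72, edgeR adjusted p = 0.22) or replicates 3 and 4 (0.77, edgeR adjusted p = 0.36).

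The far side of loop24597 carried loops of its own, from 115400001 to 115750001 and 115910001. loop24607 had 25.5, 23.4, 21.2 and 14.5 normalized contacts at 6 h and 46.0, 36.1, 43.7 and 39.3 at 72 h, with no overlap. It rose by 0.94 (SE 0.20, edgeR adjusted p = 0.00016). loop24608, at lower counts, went from 11.6 ± 3.9 (SD, n = 4) to 20.2 ± 2.7 (n = 3), by 0.75 (SE 0.27, edgeR adjusted p = 0.035), a call that adjusted p from 0.029 to 0.17 over the fits without 1 library places close to the threshold. loop24595, the longest loop of this stretch at 1290 kb, starts on the other side of TBX3 at LOC124903026. It rose from 29.4 ± 1.9 to 42.5 ± 8.4, by 0.60 (SE 0.18, edgeR adjusted p = 0.0094), but by 0.26 (edgeR adjusted p = 0.307) once counts were corrected for loop length.

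**Figure D3:**
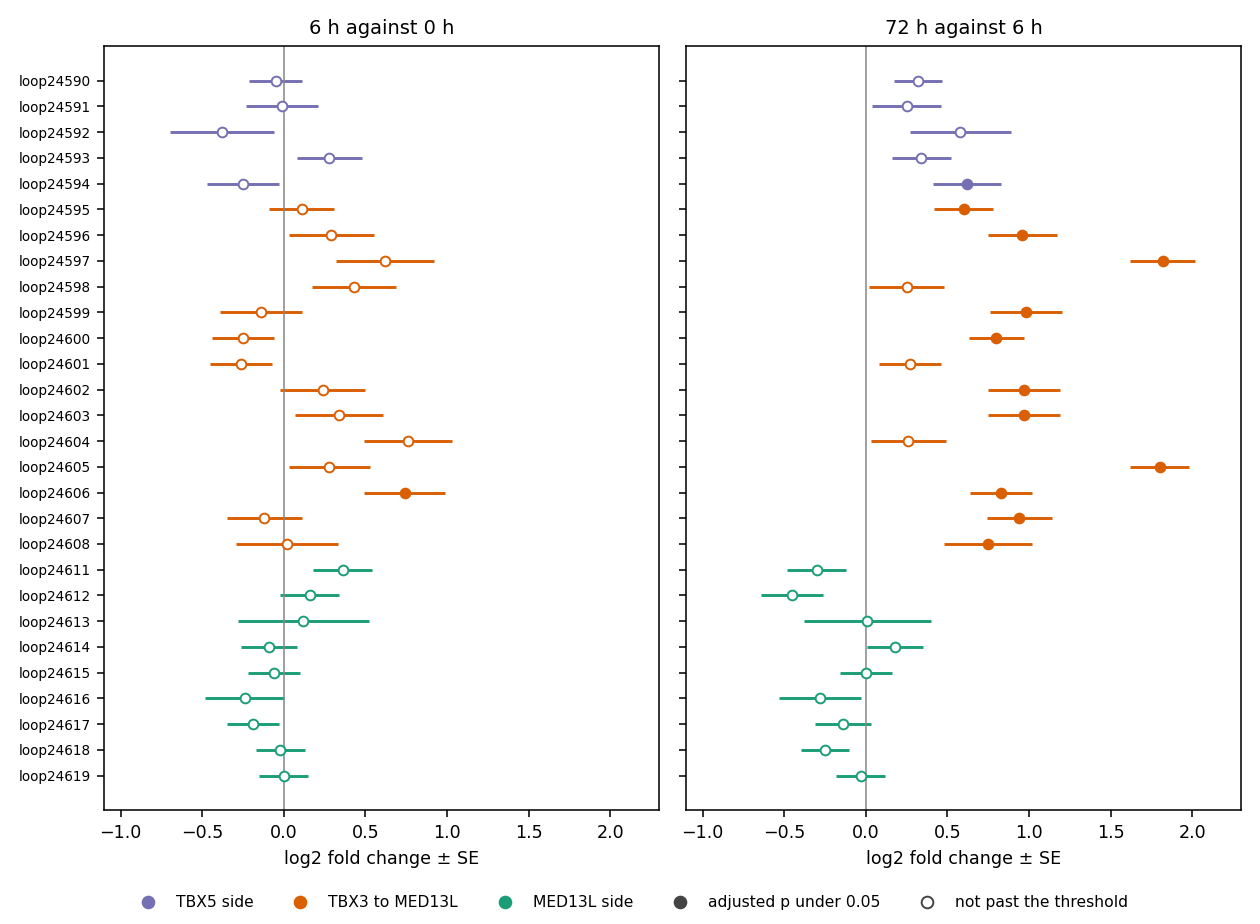
Log2 fold change ± SE of the 28 tested member loops, in order of position, for 6 h against 0 h (left) and 72 h against 6 h (right), coloured by stretch, with filled points for an edgeR adjusted p under 0.05. At 6 h 1 point is filled, and between 6 h and 72 h 10 of the 13 points other than loop24597 between TBX3 and MED13L are filled and 0 of the 9 at MED13L, beside 10.7% of all tested loops that were higher. The point of loop24597 is also filled, but its 72 h libraries chose it.

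Loop length moved with the changes across the whole table. The median log2 fold change at 72 h against 0 h was 0.01 over all tested loops, 0.21 over the 5046 loops of 500 to 1000 kb and 0.04 over the 1393 on chromosome 12. The 14 loops between TBX3 and MED13L had a median of 0.93 with a range from 0.02 to 2.45. Between 72 h and 6 h their median was 0.89, beside 0.00 over all loops and 0.07 over those of 500 to 1000 kb. Corrected for loop length, 9 of the 13 loops other than loop24597 still rose from 6 h.

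TBX5 itself was not at any anchor. None of the members had an anchor within 10 kb of either end of the gene, and the 5 loops on this side join noncoding sequence before TBX5 to positions beyond it. loop24594, 340 kb long over TBX5, had 29.7, 30.4, 21.3 and 19.3 normalized contacts at 0 h, 20.6, 25.2, 15.6 and 24.1 at 6 h, and 41.6, 29.1, 35.4 and 27.7 at 72 h. All 72 h libraries lay above all 6 h libraries, and 0 h overlapped both. It rose from 6 h by 0.62 (SE 0.21, edgeR adjusted p = 0.021), but not within replicates 1 and 2 (0.63, edgeR adjusted p = 0.11) or replicates 3 and 4 (0.63, edgeR adjusted p = 0.19), and not in every fit without 1 library (edgeR adjusted p from 0.015 to 0.13). Its neighbour loop24593 went from 28.0 ± 9.0 at 0 h (SD, n = 4) over 34.2 ± 10 at 6 h (n = 4) to 44.9 ± 9.5 at 72 h (n = 3), and its change from 6 h of 0.34 (SE 0.18) did not pass edgeR's test (adjusted p = 0.18). loop24590 had 51.7 ± 10 at 0 h and 62.7 ± 10 at 72 h. The other 2 loops, loop24591 and loop24592, changed from 6 h by amounts with edgeR adjusted p of 0.42 and 0.17.

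At MED13L 0 of 9 tested members passed edgeR's test at 6 h or between 6 h and 72 h. Of all tested loops 6.41% passed at 6 h and 20.5% between 6 h and 72 h, so 0 of so few loops says little. With DESeq2 0 passed too, but at 6 h it gave no adjusted p for most members. At an unadjusted p under 0.05, 1 was higher at 6 h (loop24611, 0.36) and 1 lower at 72 h than at 6 h (loop24612). Of all 24132 tested loops, 4908 and 8028 had an unadjusted p under 0.05 in these comparisons, in either direction. loop24617 joins chr12:116270001-116280000, the anchor with the MED13L promoter printed above, to a position 330 kb beyond the gene. It had 51.4, 40.8, 47.7 and 43.2 normalized contacts at 0 h, 41.2, 41.1, 45.3 and 35 at 6 h, and 39.8, 35.1, 35.4 and 36.6 at 72 h. The 72 h libraries all lay below the 0 h libraries and overlapped the 6 h ones. Its change was -0.33 (SE 0.16) at 72 h against 0 h and -0.14 (SE 0.17) at 72 h against 6 h, with an edgeR adjusted p of 0.6. loop24618, anchored within 10 kb of the same end, had the highest mean of the domain at 0 h, 58.4 ± 9.3 (SD, n = 4), and 57.1 ± 8.5 at 6 h (n = 4) and 47.3 ± 3.0 at 72 h (n = 3). Its change from 6 h was -0.25 (SE 0.15, edgeR adjusted p = 0.24).

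The lowest change of the domain at 72 h against 0 h was that of loop24616, from the body of MED13L, with 21.0, 24.7, 22.6 and 19.3 normalized contacts at 0 h and 14.2, 14.1, 18.7 and 14.3 at 72 h, a log2 fold change of -0.52 (SE 0.24). Its 0 h and 72 h libraries did not overlap, but replicate 3 at 72 h came close to the lowest 0 h library. The 6 h libraries had 22.6, 14, 18.4 and 19.3 and overlapped both. loop24612, also from the body of the gene, had 37.3 ± 9.9 at 6 h (SD, n = 4) and 28.4 ± 2.2 at 72 h (n = 3). Its change of -0.45 (SE 0.19) did not pass edgeR's test (adjusted p = 0.073). Of the 12 fits without 1 library, it passed only without 6 h replicate 4 (-0.58, edgeR adjusted p = 0.0286), with adjusted p up to 0.43. loop24619, at the upper edge of the window, had 51.8 ± 3.0 at 0 h, 52.3 ± 5.5 at 6 h and 50.7 ± 3.1 at 72 h. The 0 h and 72 h libraries overlapped in each of the other tested loops here, loop24611, loop24613, loop24614 and loop24615. The authors' deposited table classes 8 members as gained and 0 as lost, and all 8 gained loops lie between TBX3 and MED13L. These classes come from the same libraries that chose the domain, with loop24597 among the 8, so they are a description. The shares of both classes over all loops are not given here.

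**Figure D4:**
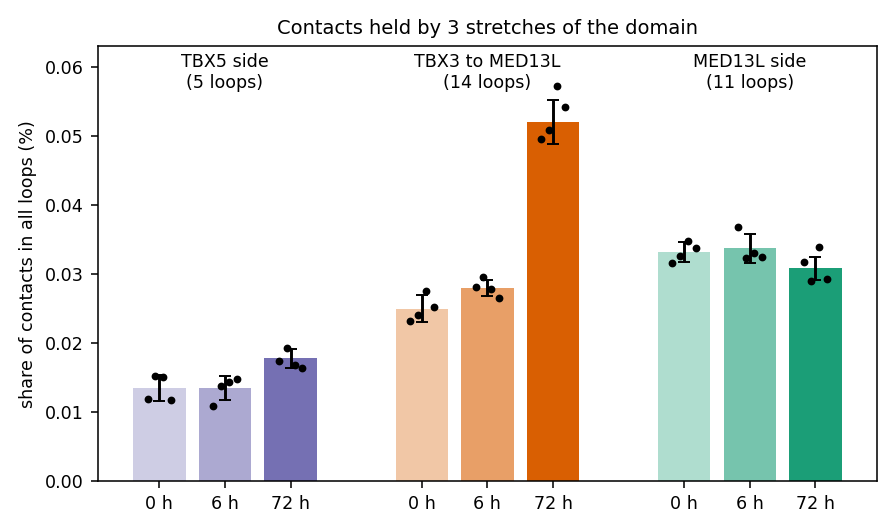
Share of all contacts in loops (%) held by the 5 loops on the TBX5 side, the 14 loops between TBX3 and MED13L and the 11 loops at MED13L, at 0 h, 6 h and 72 h. Bars are means, error bars SD (n = 4 at 0 h and 6 h, n = 3 at 72 h) and points the 12 libraries; the middle stretch goes from 0.025% to 0.052% while the MED13L stretch goes from 0.0332% to 0.0308%.

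The window's edges were set by position. The first loop below the window, loop24581, had 14.3 ± 2.6 normalized contacts at 0 h (SD, n = 4) and 15.2 ± 1.4 at 72 h (n = 3), and the first above it, loop24620, had 124 ± 7.4 and 125 ± 9.7. Just inside are loop24593 and loop24619, whose values are given above. Outside the domain, the tested loop whose course over the 12 libraries was most like that of loop24597 was loop1959 on chromosome 1, with an anchor in KCNA2, which encodes a potassium channel (Pearson coefficient 0.964, given as a description). loop3641 on chromosome 2, with an anchor in LINC01122, followed with 0.957, level with loop17291 on chromosome 8. The coefficient leaves out the size of a change. At 72 h against 0 h these loops rose 1.55-fold, 2.7-fold and 2.29-fold in that order, against 5.45-fold for loop24597. They share the libraries, and so the depth, of loop24597.

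Other T-box genes gave a mixed picture. Of 17 T-box genes, 6 had an end in the anchor of a tested loop, 12 loops in all. Between 72 h and 6 h 4 of these rose and 1 fell, beside 10.7% higher and 9.81% lower of all tested loops, with a median log2 fold change of 0.31 beside 0.00 over all tested loops. Outside the domain 9 loops of 5 genes remained, of which 2 rose and 1 fell, with a median of -0.11. The pair that rose were loop14269 at TBX18, a gene of heart and urinary tract development, by 0.59 (SE 0.21, edgeR adjusted p = 0.031), and loop5214 at EOMES, a regulator of lymphocytes and of early development, by 0.63 (SE 0.21, edgeR adjusted p = 0.023). The loop that fell was loop28637, with an end of TBX6, a regulator of mesoderm, in an anchor, at -0.34 (SE 0.11, edgeR adjusted p = 0.018), named after its value was seen. At 6 h 0 of the 12 passed edgeR's test, beside 6.41% of all tested loops. At an unadjusted p under 0.05 there was 1 of the 12, beside 4908 of all 24132 tested loops. Of 7 genes of the Mediator kinase module, 3 had a tested loop, at MED12L, MED12 and MED13L. Of the 3 loops, 0 passed edgeR's test at 6 h or between 6 h and 72 h, adjusted or not. Between 6 h and 72 h 20.5% of all tested loops passed, and 8028 did so unadjusted. With so few loops, 0 of 3 says little.

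At 72 h the counts of replicates 3 and 4 differed by no more than sampling noise over all loops (chi-square over its degrees of freedom 0.999, p = 0.54). Every other pair at 72 h differed, and these 2 libraries were averaged and counted once in each mean ± SD. At 0 h and 6 h the same replicates came close to sampling noise (1.015, p = 0.048 and 1.017, p = 0.033) but differed, and were counted as 2 libraries there. Fitted as 1 summed library at 72 h, they left 10 of the 13 loops other than loop24597 between TBX3 and MED13L higher at 72 h than at 6 h, and 10 when the replicates were summed at all 3 time points, where the 6 h call of loop24606 was lost. The labels call the replicates biological but do not say whether they were separate cultures, so p-values measure the spread between these libraries.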

How the data were processed

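In situ Hi-C contacts were deposited as raw counts per loop in 30 columns, 1 per technical replicate, per the file headers. Juicer 1.5.6, DESeq2 and build hg38 are named in the submitters' processing notes with no role; loop calling and counting are not given in the sources used here. The deposited log2 fold changes, adjusted p-values and class are the authors' own, with their model not stated in the file headers. Other deposited columns, the anchor positions, start from 0 per the file headers' values and are printed from 1.

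Technical columns were summed into 12 libraries. The filterByExpr step of edgeR 4.0.16 (R 4.3.3) removed low loops with a minimum count of 10 and a minimum total of 15. The remaining 24132 loops were scaled by TMM and given a quasi-likelihood test on time point only, with prior count 0.125, Benjamini-Hochberg adjustment and threshold 0.05. Normalized counts are contacts per 1000000 in tested loops. Gene ends came from RefSeq GRCh38.p14. Single low counts are imprecise: for 10 contacts the exact 95% Poisson bounds are 4.8 and 18.4.

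The members, the lists and the 3 stretches were chosen with earlier results of these data known. Loops named singly were loop24597, members with an anchor within 20 kb of its anchors or with an end of TBX5, TBX3 or MED13L within 10 kb of an anchor, members past the threshold, and the 3 highest at 0 h and 3 lowest at 72 h against 0 h; others were named to account for every member. Alternatives were other scalings, DESeq2 1.42.0, no filter, loop length, replicate block, batches and leaving out libraries. Batches here mean replicates 1 and 2 against replicates 3 and 4, a split that no label names as a batch. By the labels, replicates 1 and 2 had 3 technical replicates each at every time point. Replicates 3 and 4 had 2 each, sequenced more than once. Whether this split marks separate experiments was not tested.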

Additional observations from a re-analysis of the deposited data

Results flagged for a closer look

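Among 56 groups of 4 libraries, 1 per tested member at 0 h and at 6 h, 3 held a library far from the other ones in normalized contacts; chance gives about 2.8. In loop24596, which joins the TBX3 side to 115160001, replicate 4 at 0 h had 10.2, below 16.1 to 16.7 in the other libraries. In the same loop replicate 1 at 6 h had 14.7, below 19.6 to 20.5. In loop24615, in the body of MED13L, replicate 4 at 0 h had 56.9, above 41.8 to 43.9. The cause was not tested.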

How the results depend on the processing

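The count of 1 member higher at 6 h was 0 with DESeq2 (which gave no adjusted p for most members), with no filter on low counts, within replicates 1 and 2, within replicates 3 and 4, at an adjusted p under 0.01, and when replicates 3 and 4 of each time point were summed into 1 library, a setting chosen after seeing the data. It was 0 to 1 over the fits without 1 library. The count of 11 of 27 members higher at 72 h than at 6 h was 6 within replicates 1 and 2, 8 with DESeq2, 10 with a loop length correction and 9 to 11 without 1 library. The count of 14 at 72 h against 0 h was 12 with the length correction, of which 2 were lower: loop24601, at -0.45 in place of 0.02, and loop24616. It was 12 within replicates 1 and 2, 10 within replicates 3 and 4, 11 with DESeq2 and 11 to 15 without 1 library. The 15, without 0 h replicate 2, were 14 higher and 1 lower, loop24618 at MED13L. With the replicate number as a block the counts were 1, 11 and 14. Over all tested loops the block raised the calls at 6 h from 1546 to 1938 and between 6 h and 72 h from 4945 to 5472. Same-numbered libraries deviated together from their group means only weakly, with correlations from 0.0128 to 0.122, all positive. Libraries with different numbers were not compared, so whether the numbers pair the libraries was not tested. The members' share of contacts at 72 h over 0 h was 1.4, 1.2 relative to loops of 500 to 1000 kb only and 1.34 without loop24597. The T-box count at 72 h against 0 h was 8 of 12 loops (6 higher and 2 lower) and 14 of 30 with gene ends within 10 kb (12 and 2), beside 33.6% of all tested loops. Outside the domain it was 3 higher and 2 lower of 9, and 4 and 2 of 21. For single loops, 587 of 607 values stayed the same in settings other than leaving out a library, and 661 of 680 with a library left out. Same means the same side of the threshold, or for loop24597 at 72 h a shift below the SD of its 72 h libraries on the log2 scale. Of the 607, 18 lost the call, 1 gained it and 1 moved, loop24597 from 6 h to 72 h within replicates 3 and 4 (1.48). Of the 587, 26 changed sign, none past the threshold, such as loop24593 from 6 h to 72 h (0.34, and -0.27 within replicates 3 and 4). These values cover 6 h against 0 h and 72 h against 6 h, and 72 h against 0 h for loop24597 only. None of them that passed the threshold was reversed. The change of sign of loop24601 at 72 h against 0 h, given above, is not among them. The cause of the changes was not tested. Raw counts of 5 to 20 per library limit the precision of loop24597 at 0 h and 6 h.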
